A study of Homo sapiens with 32 samples.

Results

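The 10 genes described here encode the MHC class II molecules HLA-DR, HLA-DP and HLA-DQ, the proteins that load them with peptide, and their transcriptional coactivator CIITA. They were chosen by gene symbol: HLA-DRA, HLA-DRB1, HLA-DPA1, HLA-DPB1, HLA-DQA1, HLA-DQB1, HLA-DMA, HLA-DMB, CD74 and CIITA, 10 of 19775 genes that a probe set stood for. The platform annotation gave them 32 of 54675 probe sets, of which 6 list more than 1 gene, and each gene was read from its probe set with the highest mean. All 10 passed the filter on low values.

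Affymetrix arrays were run on total RNA from 32 established human lines of acute myeloid leukaemia (AML), 1 array per line. The study set expression against the response to inhibitors of the PIM kinases, and drug response was not used here. An added cytokine was named in the medium of 4 lines: F-36P, in RPMI 1640 with human IL-3 at 5 ng/ml, and OCI-AML2, OCI-AML3 and OCI-AML5, in alpha-MEM to which either GM-CSF or SCF was added (the labels do not say which). No cytokine was named for 25 lines, in RPMI 1640 or IMDM, and no medium for MOLM-13, MOLM-16 and MV4-11. All media that were named held fetal bovine serum. Every line is a leukaemia clone in culture with no treatment and no normal blood cell beside it. Levels are log2(signal + 16) throughout.

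MHC class II molecules are pairs of an alpha and a beta chain that show peptides from endocytosed proteins to CD4+ T cells. CD74, the invariant chain, fills the groove and guides new class II molecules to the endosome, where HLA-DM exchanges its remnant for peptide. CIITA does not bind DNA itself: it joins the RFX complex, CREB and NF-Y on the X and Y boxes of class II promoters, and in AML blasts HLA-DR is commonly present except in promyelocytic leukaemia.

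The X and Y boxes are shown because they are the sites through which CIITA is known to act on these genes. The 250 bases upstream of the start, from RefSeq promoter windows (GRCh38.p14), were searched for 8 members, with 9 windows in all. HLA-DRA and CIITA were not among them. The stretches below are each read 5′ to 3′ on the gene's own minus strand. The first run of capitals is a match to the X box core GNNACNGAT. The second is the match to the Y box letters nearest to it, ATTGG or its reverse complement, with no limit on spacing. The HLA-DRB1 stretch is chr6:32589875-32589941, the HLA-DQB1 stretch chr6:32666726-32666792, the HLA-DMA stretch chr6:32953157-32953224 and the HLA-DMB stretch chr6:32941031-32941130.
HLA-DRB1: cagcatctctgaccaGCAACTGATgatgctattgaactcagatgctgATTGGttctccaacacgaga
HLA-DQB1: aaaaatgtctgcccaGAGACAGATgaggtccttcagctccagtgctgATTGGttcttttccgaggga
HLA-DMA: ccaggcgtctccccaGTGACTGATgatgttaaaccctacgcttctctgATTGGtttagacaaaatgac
HLA-DMB: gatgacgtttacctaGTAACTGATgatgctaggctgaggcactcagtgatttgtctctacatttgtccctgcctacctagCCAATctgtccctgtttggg

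Between the marked X core and Y box match lay 23 bases in HLA-DRB1 and in HLA-DQB1, 24 in HLA-DMA and 56 in HLA-DMB. In HLA-DMB the marked letters are the reverse complement, CCAAT, while in the others they are ATTGG. The HLA-DMB stretch also holds an unmarked match to the same X core on the opposite strand, which overlaps the marked CCAAT. Whether this CCAAT is the Y box of that promoter was not tested. The X core used here was chosen after the promoters were seen, and it occurred on either strand in 5.54% of 35116 human promoter windows of this length. Together with a Y box it occurred in 2.03% of windows and in 4 of the 8 members. The Y box alone, which is short, was in 32% of all windows and in 7 of 8 members. The wider X core CCNNGNNAC, which can overlap the other X core, was in 43.9% of windows and in 5 of 8 members, CD74 among them. A match is a run of letters and says nothing of binding in these lines.

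Of the 32 arrays, NOMO-1 and GF-D8 stood apart, with a median signal of 198.4 and 243.3 against 68.2 to 115.4 on the other 30. The 3′ to 5′ signal ratio of GAPDH, a sign of RNA quality, was 2.42 to 7.08 on 8 arrays (those 2 and HL-60, NB-4, GDM-1, ML-2, THP-1 and MOLM-13) and 0.871 to 1.24 on the other 24. The pan-leukocyte gene PTPRC was above its array's median in every line, from 8.71 in ML-2 to 13.80 in OCI-AML2, and SPI1, CEBPA and ANPEP in all but 4, 2 and 3 lines. The other tested genes of that myeloid list, MPO, KIT and CD34, which mark earlier blood cells, were under it in 11, 10 and 16 lines.

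The class II genes ran from near the bottom to near the top of the array's scale. HLA-DRA, the alpha chain of HLA-DR, which hardly differs between people, had its lowest level in KMOE-2 (4.41), a median of 8.57, and its highest level in EOL-1 (14.32). No fold is given, since the signal in KMOE-2 (5.3) was far under its array's median and the offset of 16 would set it. It was at or above 11.81 in 12 lines and at or below 10.71 in the other 20, with its widest gap between FKH-1 (11.81) and NOMO-1 (10.71). In 10 lines HLA-DRA lay under the median of its own array.

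HLA-DRB1, the main beta chain of HLA-DR, had its lowest level in MO7E (6.73), a median of 9.94 and its highest level in GDM-1 (14.46). By this probe set, 208306_x_at, it was over the array median in 32 of 32 lines, though in MO7E and OCI-M2 by only 0.10 and 0.05. Other HLA-DRB1 probe sets, shared with further genes, fell under it. The level of 204670_x_at was 5.38 in NB-4 (array median 6.56), and that of 215193_x_at 5.18 in ML-2 (array median 6.73). HLA-DPA1, the alpha chain of HLA-DP, lay between 4.45 in PLB-985 and 14.62 in GDM-1, with a median of 8.62. Its partner HLA-DPB1 lay between 4.39 in MO7E and 13.77 in GDM-1, with a median of 7.34, and 11 lines were above a gap between SH-2 (10.24) and OCI-AML2 (8.73). CD74 lay between 4.50 in PLB-985 and 13.68 in GDM-1, with a median of 10.73, and 24 lines were above a gap between HEL (8.54) and MOLM-16 (7.13). CD74 was present in lines whose HLA-DRA was below its median over lines, among them HL-60, PL-21 and ML-2, at 9.90, 10.52 and 10.87. HLA-DRA was under its array's median in HL-60 (5.78) but over it in PL-21 (8.19) and ML-2 (7.40).

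The peptide-exchange genes varied less. HLA-DMA lay between 5.89 in NB-4 and 12.23 in GDM-1, with an SD over lines of 1.82 against 3.26 for HLA-DRA. HLA-DMB lay between 6.69 in NB-4 and 11.39 in NOMO-1, with an SD of 1.33, and was over the array median in all 32 lines.

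HLA-DQ has to be read with care on this platform. The HLA-DQB1 probe set of highest mean, 209312_x_at, is also annotated to HLA-DRB1, HLA-DRB4 and HLA-DRB5, and its level correlated with HLA-DRB1 at r = 0.995 over 30 units. The HLA-DQB1 probe set of highest mean that lists no other gene, 211654_x_at, was highest in F-36P at 12.14, followed by OCI-M1 at 10.62 and GDM-1 at 10.44. HLA-DQA1 by 213831_at was high in OCI-M1 (10.17) and SET2 (9.17), and at most 7.34 elsewhere. It was over the array median in 3 lines, OCI-M1, SET2 and, by 0.07, KG-1. A second HLA-DQA1 probe set, 212671_s_at, shared with HLA-DQA2, was also high in GDM-1 (10.70), EOL-1 (10.27) and NOMO-1 (9.03), so the lines with HLA-DQA1 signal depended on the probe set. HLA-DQ alleles differ in sequence between people, and how far each probe set reads each line's allele was not tested.

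**Figure D1:**
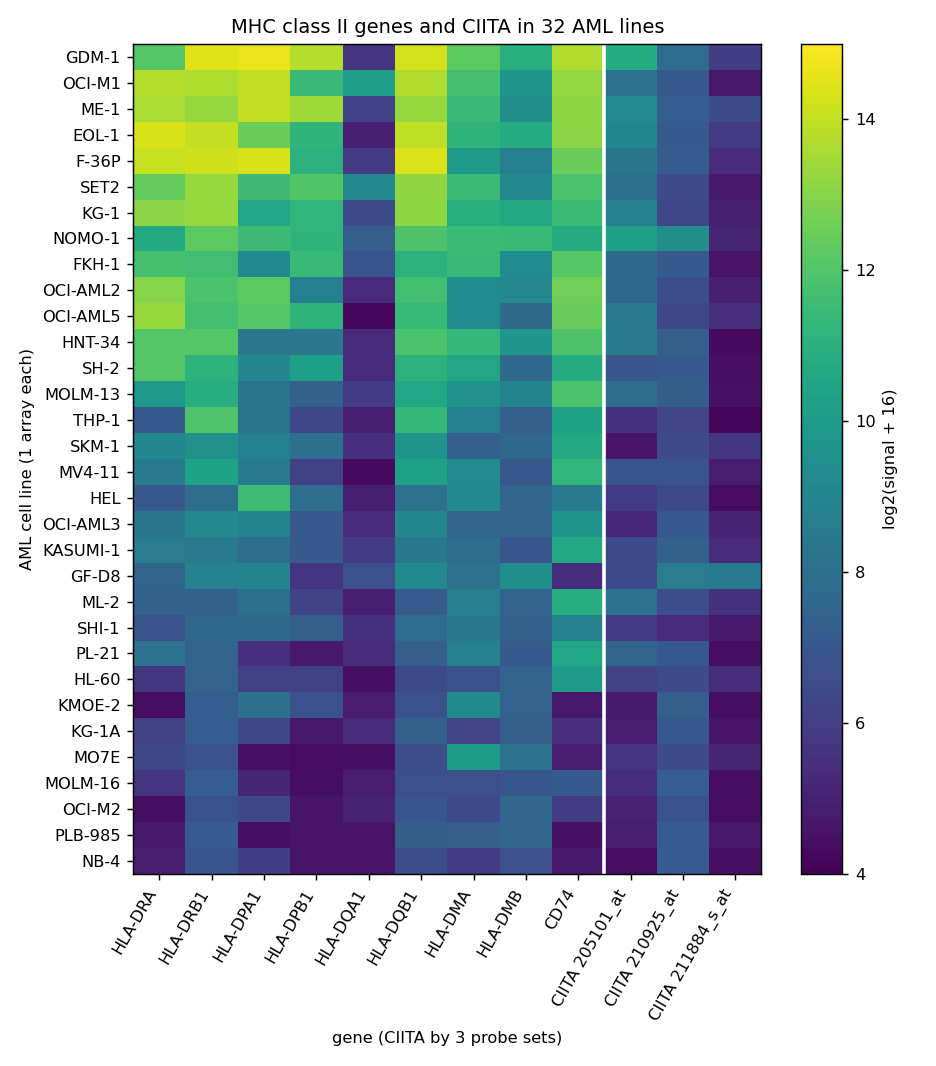
Level of each gene, as log2(signal + 16), in the 32 lines (1 array each), ordered by the mean of the 9 genes other than CIITA; the 3 columns on the right are the 3 CIITA probe sets. Colours are to be compared down a column: HLA-DRA lies between 4.41 and 14.32 and CIITA 205101_at between 4.38 and 10.83, while CIITA 210925_at lies between 6.30 and 7.83 in all but SHI-1, GF-D8 and NOMO-1.

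By the mean of the 9 genes, the lines were ordered from GDM-1 (12.41) and OCI-M1 (12.37) through ME-1 (11.97), EOL-1 (11.78), F-36P (11.69), SET2 (11.58) and KG-1 (11.20) down to MO7E (6.23), MOLM-16 (6.10), OCI-M2 (6.03), PLB-985 (5.81) and NB-4 (5.67). With 1 array per line, neighbours in this order cannot be told apart. NB-4 comes from promyelocytic leukaemia and ranked between 28 and 32 of 32 for each of the 9 genes. Of the 5 genes HLA-DRA, HLA-DRB1, HLA-DPA1, HLA-DPB1 and CD74, all 5 were over the array median in 18 lines, and only 1 of 5 was in KG-1A, MO7E, OCI-M2, PLB-985 and NB-4. That 1 gene was HLA-DRB1 in each, by 0.05 (OCI-M2) to 0.75 (PLB-985). Its chosen probe set was over the array median in all 32 lines, so no line could have a lower count.

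The genes moved together over the lines, though not in all of them. Among the 9 genes without HLA-DQA1, the 28 pairwise correlations over 30 units ran from 0.492 to 0.995 with a median of 0.794, and without NOMO-1 and GF-D8 from 0.623 to 0.996. The highest was that of HLA-DRB1 with the HLA-DQB1 probe set that is also annotated to HLA-DRB1. How far these 2 probe sets read the same transcripts was not tested. The 8 correlations with HLA-DQA1 were 0.357 to 0.521. All values of a line come from 1 array and share its scaling. The lines that broke the pattern did so by gene. THP-1 ranked 10 of 32 for HLA-DRB1 (11.98) and 22 for HLA-DRA (7.10). HEL ranked 8 for HLA-DPA1 (11.59) and 15 for HLA-DPB1 (7.94), its beta chain. MO7E ranked 11 for HLA-DMA (10.01) and was among the 8 lowest for HLA-DRA (6.37), HLA-DPA1 (4.50), HLA-DPB1 (4.39) and CD74 (4.83). KMOE-2 had HLA-DMA at 9.26, at rank 17, with the lowest HLA-DRA of all lines.

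The closest related lines showed how far class II can part within 1 lineage of cells. KG-1A is a less differentiated subline of KG-1, and PLB-985 a subline of HL-60. HLA-DRA was 6.09 in KG-1A, under its array's median, and 13.08 in KG-1, a difference of -7.00. In the same pair HLA-DPB1 was 4.75 in KG-1A and 11.24 in KG-1, CD74 was 5.54 and 11.49, HLA-DRB1 was 7.30 and 13.25, and HLA-DMA was 6.29 and 10.90. HLA-DQA1 parted least, with 5.40 in KG-1A and 6.47 in KG-1, a difference that 18.3% of genes reached. The median absolute difference between these 2 arrays over the 15455 genes tested was 0.47, and 0.0841% of genes were as far apart as HLA-DRA. CIITA by 205101_at was 4.83 in KG-1A and 8.74 in KG-1, a difference of -3.91 that 1.47% of genes reached, whereas by 210925_at it was 7.03 in KG-1A and 6.35 in KG-1, and by 211884_s_at 4.65 in KG-1A and 4.96 in KG-1, which 35.4% and 64.1% of genes reached. Of the 3 CIITA probe sets, 205101_at was thus the one that parted widely with the class II genes in this pair. These pairs have 1 array per line and no replicate check.

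PLB-985 and HL-60 parted at CD74, with 4.50 in PLB-985, under its array's median, and 9.90 in HL-60, a difference of -5.39 that 0.129% of genes reached, against a median absolute difference of 0.58. HLA-DRA was 4.80 in PLB-985 and 5.78 in HL-60. HLA-DPA1 differed by -1.65, and the other 6 class II genes by less. The HL-60 array had the highest GAPDH ratio of all (7.08, against 0.933 for PLB-985), and its part in the difference was not tested. CIITA by 205101_at was 4.90 in PLB-985 and 6.18 in HL-60.

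**Figure D2:**
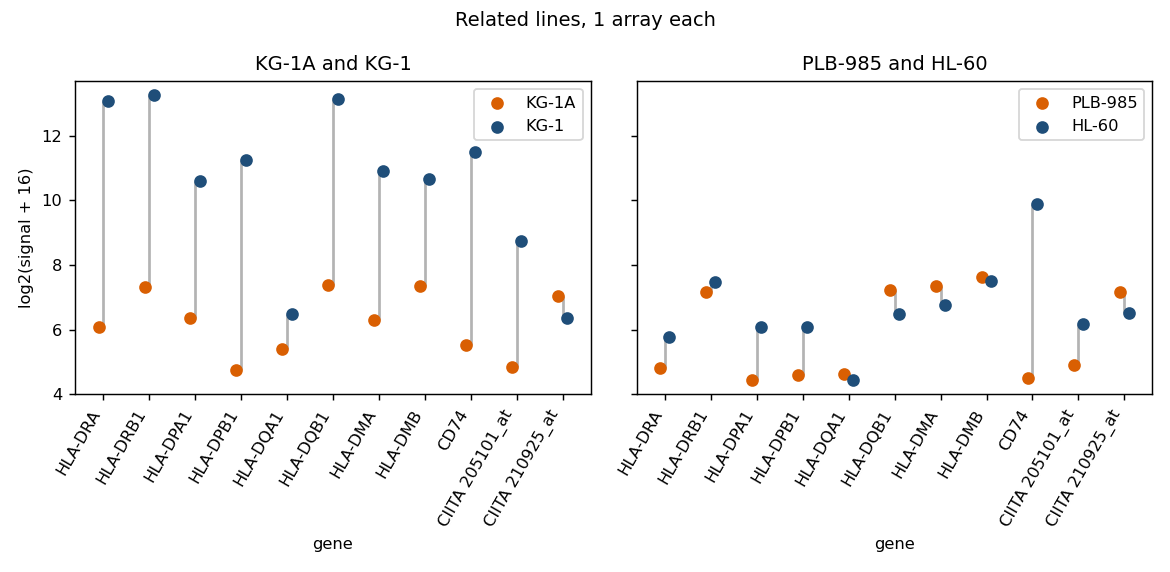
Levels, as log2(signal + 16), in KG-1A and KG-1 (left) and in PLB-985 and HL-60 (right), 1 array per line; grey lines join the 2 values of a gene. KG-1A lies below KG-1 for all 9 class II genes and for CIITA 205101_at, and PLB-985 lies far below HL-60 at CD74.

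CIITA, the coactivator of these genes, has 3 probe sets, and their levels went different ways over the lines. The probe set with the highest mean, 210925_at, had its lowest level in SHI-1 (5.34), a median of 7.05 and its highest level in NOMO-1 (9.43), with an SD of 0.71. The second, 205101_at, was lower by only about 0.02 in its mean (6.999 against 7.02), and had its lowest level in NB-4 (4.38), a median of 6.93, its highest level in GDM-1 (10.83) and an SD of 1.73. The third, 211884_s_at, was lowest in THP-1 (4.17), had a median of 4.85 and was highest in GF-D8 (8.58), and was over the array median in 1 line. Over 30 units, 210925_at correlated with 205101_at at r = 0.395 (rho 0.277) and with 211884_s_at at r = 0.395 (rho 0.153). The level of 210925_at followed the median signal of the array at r = 0.646, and at r = -0.07 without NOMO-1 and GF-D8; for 205101_at these values were 0.278 and 0.313. What part of the transcripts each probe set reads was not examined here.

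By 210925_at, limma called 1 of the 9 other genes: HLA-DMB, whose slope was 0.97 ± 0.28 on the log2 scale of both genes (SE, 30 units, adjusted p = 0.0135). In this comparison 25% of all genes were called (3869 of 15454), so 1 of 9 is no result about the class II genes. HLA-DRA had a slope of 0.60 ± 0.78 (adjusted p = 0.602, r = 0.138, rho 0.146) and CD74 of 0.0035 ± 0.69 (adjusted p = 0.997, r = 0.0009, rho 0.101). The median slope of the 9 genes was 0.76, against 0.09 over all genes tested. Without NOMO-1 and GF-D8, no gene of the whole array was called. The slope of HLA-DMB was then 0.80 ± 0.44 (adjusted p = 1), that of CD74 0.93 ± 1.05 (adjusted p = 1), and the median slope of the 9 genes 1.10 with all 9 positive. By 211884_s_at, limma called none of the 9 genes, where 11% of all genes were called (1706), and no gene without those 2 arrays, where the median slope of the 9 was 1.71 against 0.54 with them. The p-values measure only the spread between lines, since no line has a second array.

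By 205101_at, 8 of the 9 genes rose with CIITA, and they made up most of what did so: limma called 0.0776% of all genes, 12 of 15454, each with a positive slope. This probe set was followed up after its relation to the class II genes had been seen in these data, so its slopes are no independent evidence. HLA-DRA rose by 1.47 ± 0.21 for each log2 unit of CIITA (adjusted p = 0.00031), HLA-DPB1 by 1.29 ± 0.19 (adjusted p = 0.000545), CD74 by 1.27 ± 0.19 (adjusted p = 0.000545) and HLA-DPA1 by 1.20 ± 0.22 (adjusted p = 0.007). HLA-DRB1 and the shared HLA-DQB1 probe set both rose by 1.16 ± 0.18 (adjusted p = 0.000582). Their levels correlated at r = 0.995 over 30 units, so within the 8 genes they may not be separate signals. The HLA-DQB1 probe set of highest mean that lists no other gene, 211654_x_at, was not set against CIITA. The loading genes had smaller slopes, 0.83 ± 0.11 for HLA-DMA (adjusted p = 0.000228) and 0.60 ± 0.09 for HLA-DMB (adjusted p = 0.000582). HLA-DQA1 had a slope of 0.29 ± 0.13 that did not pass (adjusted p = 0.476). The median slope of the 9 was 1.16, against 0.02 over all genes tested.

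The other 4 genes called were HLA-DRB4, a beta chain gene that some HLA-DR haplotypes carry and others lack (1.24 ± 0.23, adjusted p = 0.007), the HLA-DR beta pseudogene HLA-DRB6 (0.69 ± 0.12, adjusted p = 0.00633), the interferon-induced gene TRIM22 (0.80 ± 0.16, adjusted p = 0.0272) and SAMD11 (0.37 ± 0.07, adjusted p = 0.0221). HLA-DRB4 and HLA-DRB6 are near-identical in part to HLA-DRB1, and how far their probe sets read its transcripts was not tested. In terms of correlation over 30 units, 205101_at stood at r = 0.788 with HLA-DRA (rho 0.814), 0.809 with HLA-DMA (rho 0.808) and 0.773 with CD74 (rho 0.842). Without GDM-1 and NOMO-1, the 2 units farthest from the median of this probe set, r was 0.847, 0.770 and 0.805.

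**Figure D3:**
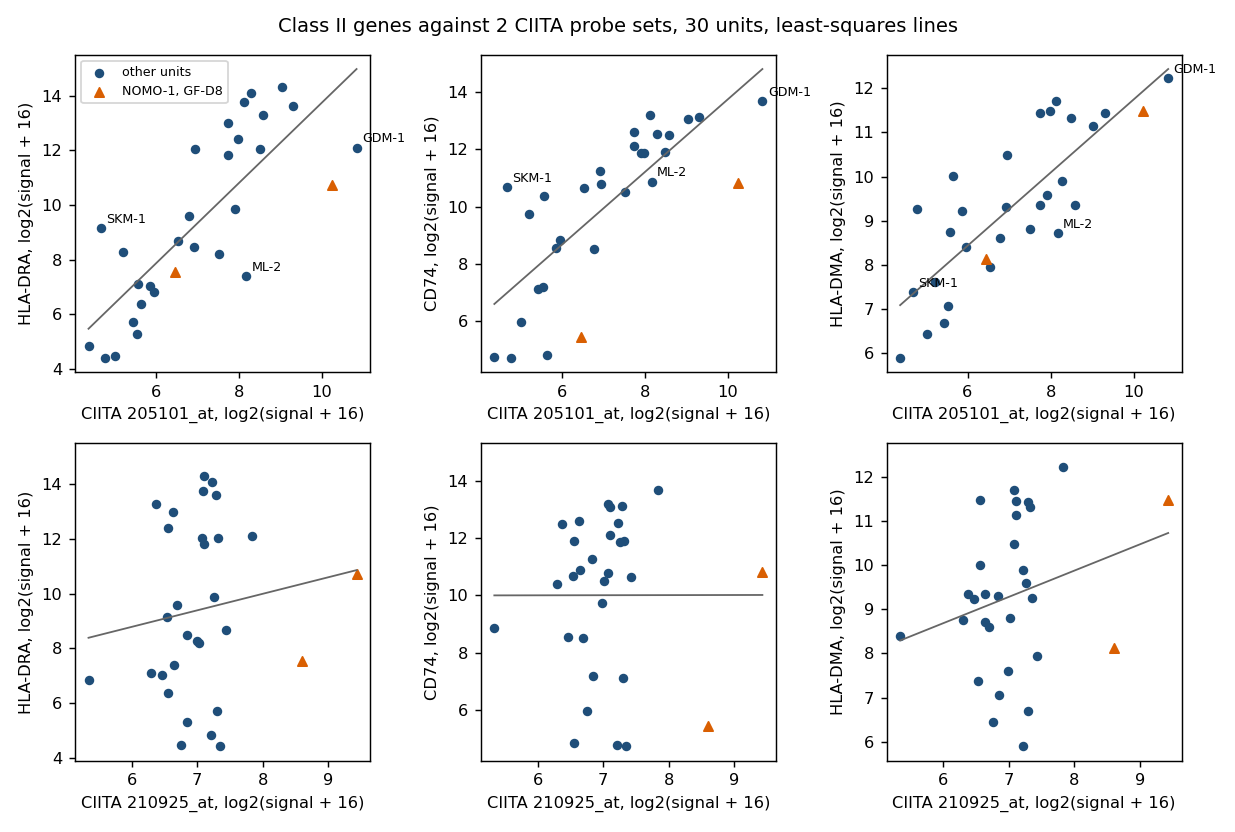
HLA-DRA, CD74 and HLA-DMA against CIITA by 205101_at (top) and by 210925_at (bottom), all as log2(signal + 16), 1 point per unit (30), with least-squares lines; triangles mark NOMO-1 and GF-D8. The points climb with 205101_at (r = 0.788, 0.773 and 0.809), whereas on 210925_at SHI-1 (5.34), on the left, and the 2 triangles, on the right, stand away from the other points.

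The calls by 205101_at held in some fits with fewer units and were lost in part or in full in others. Without NOMO-1 and GF-D8 (28 units), limma called 10 genes, 8 of the 9 among them. The slopes were then 1.62 ± 0.21 for HLA-DRA (adjusted p = 0.000186) and 1.39 ± 0.17 for CD74 (adjusted p = 0.000127). Within the 15 units above and the 15 below the median of this probe set none of the 9 genes was called. Of all 15454 genes tested, none was called in either set of units. Above that median the slope of HLA-DRA was 0.34 ± 0.49 and that of CD74 0.42 ± 0.22, and below it 1.32 ± 0.45 and 1.23 ± 0.69. The median slope of the 9 genes was 0.92 above and 0.76 below, against 0.06 and 0.03 over all genes tested. In the 19 units in RPMI 1640 with no cytokine named, 3 of the 9 were called and no other gene was. HLA-DRA then had a slope of 1.27 ± 0.21 (adjusted p = 0.0481). Without the 8 arrays of high GAPDH ratio (23 units), 6 of the 9 genes were called and no other gene was; the HLA-DRA slope was then 2.04 ± 0.21, and HLA-DMB (0.52 ± 0.11, adjusted p = 0.223) and HLA-DPA1 (1.43 ± 0.30, adjusted p = 0.181) did not pass. HLA-DPA1 also missed the threshold without GDM-1 (1.16 ± 0.24, adjusted p = 0.0739). With erythroid and monocyte list levels as covariates, the slope of HLA-DRA was 1.47 ± 0.21.

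**Figure D4:**
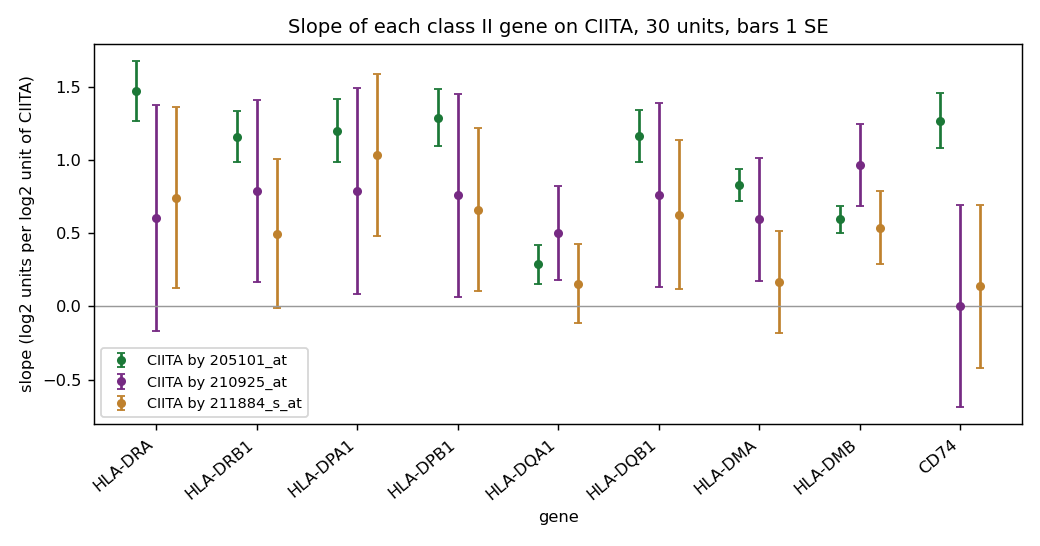
Slope of each of the 9 class II genes on CIITA, in log2 units per log2 unit of CIITA, by each of its 3 probe sets over 30 units; bars are 1 SE. By 205101_at the slopes of all but HLA-DQA1 lie between 0.60 and 1.47 with short bars, and by the other 2 probe sets the bars are wide.

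As a description of how much of the class II level went with CIITA, a straight line on 205101_at took up 69% of the variance over units of the mean of the 9 genes, from 13.7% for HLA-DQA1 and 49.2% for HLA-DPA1 to 65.5% for HLA-DMA. On 210925_at it took up 4.84%, and on 211884_s_at 4.59%. The mean of the 9 holds HLA-DQB1 by the probe set that is also annotated to HLA-DRB1. The lines left over by 205101_at differed on both sides. OCI-M1 lay above its fitted level by 2.32 on the mean of the 9 genes, SKM-1 by 1.98 and SET2 by 1.67, with 9 of 9 genes above in each. SKM-1 had CD74 at 10.67 and HLA-DRA at 9.14 with the second lowest 205101_at level of all lines (4.68). The signal behind that level, 9.6, was far under its array's median of 71.1, so the offset of 16 largely set it. By 210925_at SKM-1 ranked 26 of 32, and by 211884_s_at it ranked 5 (5.73, also under its array's median). ML-2 and PL-21 lay below, at -2.52 and -2.19, with 0 of 9 genes above in each. Both had a 205101_at level over the median (8.17 in ML-2 and 7.51 in PL-21), with HLA-DRA at 7.40 and 8.19 and HLA-DPB1 at 6.24 and 4.74. By 210925_at ML-2 and PL-21 ranked 22 and 18 of 32 lines, and by 211884_s_at 6 and 26. CD74 was closest to its fitted level in both, at -0.55 in ML-2 and -0.07 in PL-21. The GAPDH ratio was 5.97 on the ML-2 array and 0.902 on the PL-21 array; the part of RNA quality in the ML-2 residual was not tested.

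**Figure D5:**
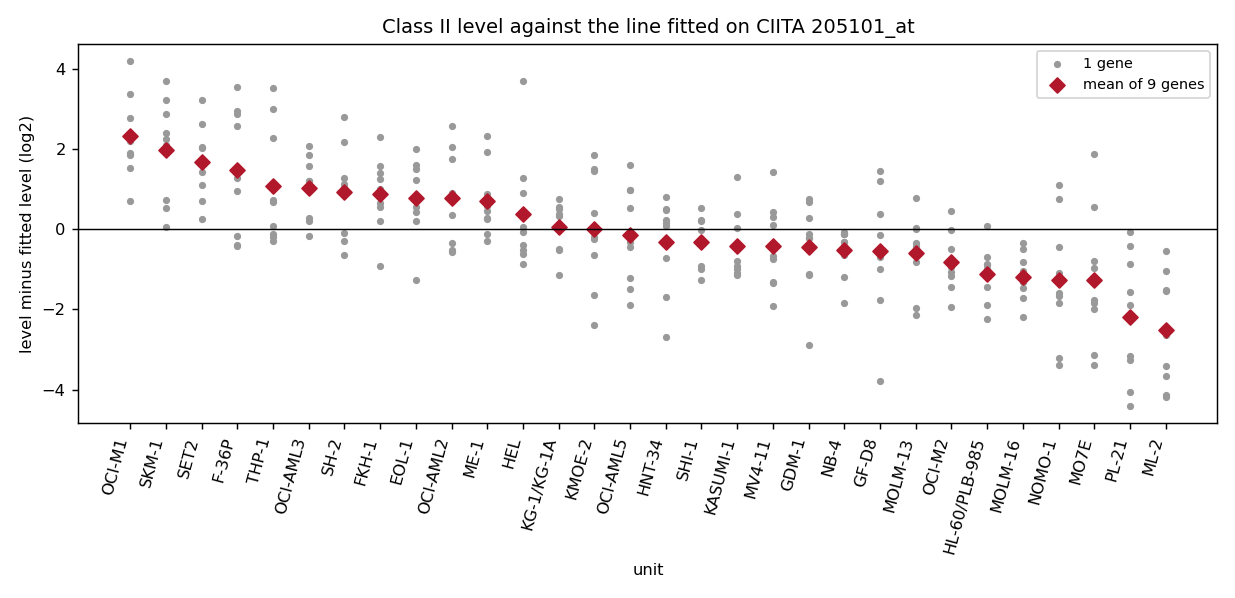
Level of each class II gene minus the level fitted on CIITA 205101_at, in log2 units, by unit (30, with the 2 pairs of related lines averaged); grey points are the 9 genes and diamonds their mean. OCI-M1, SKM-1 and SET2 have all 9 points above 0, and ML-2 and PL-21 have none.

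The partners through which CIITA reaches DNA were on in nearly all lines. The 7 genes of this list, RFX5, RFXANK, RFXAP, NFYA, NFYB, NFYC and CREB1, had medians of 9.76 to 11.19 over lines and were over the array median in every line, except RFX5 in GF-D8 (7.71). By 205101_at, where 0.0776% of all genes were called, none of the 7 passed limma's test (2 positive slopes, median -0.05), and the list's mean level correlated with the mean of the 9 genes at r = 0.0002 over 30 units. By 210925_at 3 of 7 fell, where 25% of all genes were called in either direction, and none had a positive slope. Those 3, RFX5, RFXANK and CREB1, each had their lowest level in GF-D8 (7.71, 9.42 and 8.91). Without NOMO-1 and GF-D8, the 2 arrays highest for 210925_at, no gene of the whole array was called.

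Among the 11 tested genes that induce or repress CIITA, none passed by 205101_at, where 0.0776% of all genes did, and all 11 slopes were positive, with a median of 0.07 against 0.02 over all genes. The mean level of this list correlated with the mean of the 9 class II genes at r = 0.598 over 30 units, and at 0.629 without NOMO-1 and GF-D8. IRF1, which acts on the interferon-responsive CIITA promoter, had a slope of 0.27 ± 0.08 (adjusted p = 0.3) and lay between 7.89 in OCI-M2 and 12.21 in OCI-M1. SOCS1, a brake on interferon signalling, had a slope of 0.27 ± 0.15 (adjusted p = 0.539). IFNG, whose product induces CIITA, was under the array median in 32 of 32 lines. Among other class II genes HLA-DOA and HLA-DOB, which hold HLA-DM in check, had slopes of 0.15 ± 0.11 and 0.18 ± 0.13 (adjusted p = 0.625 and 0.645), and HLA-DOB was highest in MOLM-13 (10.11). Of 11 genes of peptide processing and 7 of T cell costimulation none passed, and the mean level of each list correlated with the class II mean at r = 0.406 and 0.498. The ubiquitin ligase gene MARCHF1, whose product removes class II from the surface, had the largest slope of the first list, 0.27 ± 0.10 (adjusted p = 0.424). MARCHF1 was under its array's median in 27 of 32 lines.

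No cell type marker was called on CIITA by 205101_at, where few genes of any kind were (0.0776%). None of the tested genes of the monocyte (11), dendritic cell (9) or B cell (8) lists passed, and 9, 7 and 8 slopes were positive, with medians of 0.10, 0.22 and 0.13. In the dendritic cell list the chemokine receptor gene CCR7 had the largest slope, 0.65 ± 0.17 (limma p = 0.000563, adjusted p = 0.256), followed by the IL-3 receptor gene IL3RA with 0.53 ± 0.16 (p = 0.00297, adjusted p = 0.351). The largest slopes were 0.35 ± 0.19 for ITGAM among monocyte genes and 0.24 ± 0.10 for CD22 among B cell genes (adjusted p = 0.535 and 0.453). The mean level of the dendritic cell list correlated with the mean of the 9 class II genes at r = 0.464, of the B cell list at 0.282, of the monocyte list at 0.168 and of the erythroid list at 0.06, over 30 units. The lists were mixed in single genes. Of the monocyte genes, LYZ, ITGAM and CSF1R were under the array median in 3, 4 and 9 lines, and CD14 and FCGR1A in 27 and 31. Of the B cell genes, CD79A, CD22 and CD79B were under it in 0, 8 and 13 lines, and EBF1 and VPREB1 in 28 and 29.

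The 10 genes outside the members whose level was most like the mean of the 9 class II genes were HLA-DRB6 (r = 0.90 over 30 units), HLA-DRB4 (0.733), ADAM28 (0.693), TRIM22 (0.652), FRMD1 (0.650), IRF1 (0.629), LGALS9 (0.614), PLXNA2 (0.610), PTPRM (0.609) and GK6P (0.608). Without NOMO-1 and GF-D8 each of these stayed at 0.615 or more. For CIITA by 210925_at the 10 most like were led by PADI1 (0.823) and TRAPPC14 (0.814), which were at 0.552 and 0.465 without those 2 arrays.

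The culture comparison asked whether lines grown with an added cytokine differ in class II. HLA-DRA was 14.09 in F-36P, 12.996 in OCI-AML2, 8.28 in OCI-AML3 and 13.27 in OCI-AML5, and in the 25 lines with no cytokine named it was lowest at 4.41, with a median of 8.19 and a highest level of 14.32. The groups overlapped: 3 of the 4 cytokine lines were near the top of the range and OCI-AML3 was at its middle. The difference was 3.05 ± 1.57 (SE, 4 lines against 23 units, limma adjusted p = 0.888), and for HLA-DPA1 it was 2.78 ± 1.41 (adjusted p = 0.887). None of the 10 genes was called, with 0% of all genes called (0 of 15455, and 878 at an unadjusted p under 0.05). CD74 was 12.53 in F-36P, 12.61 in OCI-AML2, 9.74 in OCI-AML3 and 12.49 in OCI-AML5, against a lowest level of 4.50, a median of 10.64 and a highest level of 13.68 with no cytokine named. CIITA by 205101_at was 8.28, 7.74, 5.22 and 8.59 in the same 4 lines, with OCI-AML3 lowest, and by 210925_at it was 7.22, 6.63, 6.99 and 6.37, with OCI-AML5 lowest. IL-3 was given to 1 line, and each line has its own genotype. OCI-AML2, OCI-AML3 and OCI-AML5 were the only lines for which alpha-MEM was named. Cytokine, medium and line thus cannot be told apart.

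The study concerned PIM kinases, and class II was set against the level of each. On PIM1, none of the 10 genes was called, with 0.00647% of all genes called (1), and 10 of 10 slopes were positive; HLA-DRA had the largest, 0.58 ± 0.24 (limma adjusted p = 0.62). On PIM2, none was called with 1.48% of all genes called (229), and HLA-DRA had a slope of 0.51 ± 0.64 (adjusted p = 0.657). On PIM3, none was called with 0.569% called (88), 9 of 10 slopes were negative, and HLA-DRA had a slope of -1.51 ± 0.93 (adjusted p = 0.384).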

How the data were processed

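Total RNA of 32 AML lines was labelled and hybridised to Affymetrix arrays of 54675 probe sets, 1 array per line. The authors deposited 1 linear intensity per probe set, made with Affymetrix Expression Console, per the submitters' processing notes; its version and the summarization method are not given in the sources used here. The mean after trimming 2% at each end was 500.0 to 500.1 on every array. Values were taken as log2(signal + 16) with no further scaling.

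Probe sets were named from the platform annotation: 41097 had 1 symbol, 1801 several, and 11777 were unlisted or unnamed. Genes above 6.73, the median of all values, in at least 3 units were tested, 15455 in all. HL-60 with PLB-985 and KG-1 with KG-1A were averaged as sublines, giving 30 units. The growth entry written KG1 with a question mark was read as KG-1A. limma 3.58.1 in R 4.3.3 (lmFit, eBayes with trend) gave slopes and differences, two-sided, with Benjamini-Hochberg adjustment over all genes tested and a threshold of 0.05; each ± is a standard error. The script was tested on simulated data. Python 3.11.15, pandas 2.3.3 and matplotlib 3.10.9 were used for tables and plots. With 1 array per line, precision is limited by how many arrays there are.

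The rule for named genes took the 10 members, the PIM genes, up to 4 genes of largest slope in each list, the 10 most like each target and the 5 largest slopes each way. Not all of these are printed, and the genes of 205101_at and the markers given by their counts under the array median were chosen after their values were seen. The members, gene lists and tests were chosen with earlier results of these data known. Alternatives changed the offset added before the log, scaling, filter, sublines, arrays, covariates and the CIITA probe set. Response to PIM inhibitors was not used here.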

Additional observations from a re-analysis of the deposited data

Results flagged for a closer look

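CD74 in OCI-AML3 was 9.74, the lowest of the 4 lines grown with an added cytokine, and far from the other 3, which lay within 12.49 to 12.61. The gap to the nearest line was 0.958 of the group's range, above the critical value for 4 samples. About 1 in 20 groups would pass this by chance. The rule was applied to each of the 10 genes and to CIITA by 205101_at, and only CD74 passed. The 4 values come from 4 different lines and are not replicates of 1 line. OCI-AML3 was also the lowest of the 4 for HLA-DRA (8.28) and for CIITA by 205101_at (5.22), while by 210925_at it was second highest (6.99).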

How the results depend on the processing

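No paired analysis was possible because the labels give no replicate numbers that groups share. For CIITA by 210925_at, the 3869 genes called became 529 with quantile normalization, 0 with median centring, 6189 with no filter, 0 without NOMO-1 and GF-D8, 0 without the 8 arrays of high GAPDH ratio, 1966 with the GAPDH ratio as covariate and 0 in units below the median CIITA level, and 8 to 5486 in leave-one-out (8 without NOMO-1 and 621 without GF-D8). The 1 class II gene called became 0 with quantile normalization, median centring, without NOMO-1 and GF-D8, without the 8 arrays and in units above or below the median, and was 0 to 1 in leave-one-out (0 without NOMO-1 or without GF-D8). The slope of that gene, HLA-DMB, 0.97 as reported, was 1.00 with quantile normalization (adjusted p = 0.0527), 1.02 without GF-D8 (adjusted p = 0.0544) and 0.37 without the 8 arrays. The CD74 slope was 0.93 without NOMO-1 and GF-D8 and 0.45 without the 8 arrays, and turned to -0.008 with an offset of 1, -0.18 with 32 separate lines, -0.0577 with erythroid and monocyte covariates, -0.87 above and -0.016 below the median, and lay between -0.22 and 0.60 in leave-one-out. Below the median, slopes were -0.42 for HLA-DMA, -1.01 for HLA-DPA1, -1.43 for HLA-DPB1, -0.20 for HLA-DQA1, -0.37 for HLA-DQB1 and -0.24 for HLA-DRB1, and above it -0.0005 for HLA-DQB1, -0.74 for HLA-DRA and -0.05 for HLA-DRB1; each side holds 15 units. The share of variance of the mean class II level that went with CIITA was 4.84% by 210925_at and 69% by 205101_at.

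By 205101_at, an alternative chosen with its result known, the 12 genes called became 6 without the 8 arrays, 3 in RPMI 1640 with no cytokine named (all 3 class II genes: HLA-DMA, HLA-DMB and HLA-DRA) and 0 in units above or below the median CIITA level, where 0 class II genes were called and the HLA-DQA1 slope was -0.015 above it. In leave-one-out 8 to 18 genes and 7 to 8 class II genes were called (8 genes without GDM-1). By 211884_s_at, 1706 genes became 0 without NOMO-1 and GF-D8. For cytokine, 4 genes were called without the 8 arrays and 0 to 1 in leave-one-out; without OCI-AML3 the differences of HLA-DMA and HLA-DMB turned to 0.0857 and 0.0572, and over the 4 lines left out in turn they lay between -0.68 and 0.0857 and between -0.47 and 0.0572. Genes called on PIM1 were 3 with an offset of 1 and with quantile normalization, and 2 with median centring, 32 separate lines, without NOMO-1 and GF-D8 and without the 8 arrays. On PIM2 they were 1727 (quantile), 4055 (median centring), 120 (without the 8 arrays) and 16 (GAPDH covariate), and on PIM3 1035, 45, 0 and 0 under those settings, 22 with no filter, 544 with 32 lines and 31 without NOMO-1 and GF-D8. The slope of HLA-DMB on PIM2 was -0.0771 with quantile normalization, and that of CIITA on PIM3 -0.0041 with median centring and -0.0393 with the GAPDH covariate. The causes were not tested. No class II gene was called on any PIM gene or by cytokine under any of these settings. The limits are 1 array per line, shared HLA probe sets, and arrays of unequal RNA quality.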
